A study of Mus musculus with 2 samples.

Results

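The Fos and Jun genes encode the subunits of activator protein 1 (AP-1), a pair of leucine zipper proteins that binds DNA together. Levels of 6 of these genes, Fos, Fosb, Fosl2, Jun, Junb and Jund, were examined in single cells of the mouse habenula. They were found by symbol, and all 6 were present among the 28692 genes of both libraries. Each gene was followed through 15 classes of cells that were formed by clustering and named from marker genes, with the foot shock library set beside the control library.

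Fos proteins bind DNA only as partners of Jun proteins, whereas Jun proteins also pair with each other. Fos, Fosb, Jun and Junb are immediate early genes, which neurons transcribe within minutes of strong firing or calcium entry, through transcription factors that are already in place (Srf with Elk1, Creb1 and Mef2 proteins). Their transcripts are short-lived, so the Fos level of a neuron is widely used as a mark of its recent activity. Jund is more evenly expressed, and Fosl2 is usually induced later. The same genes also respond to growth factors, stretch and tissue injury in glia and in blood vessels, and to the handling of tissue during dissociation.

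Adult male C57BL/6 mice aged 50 to 55 days were used, and the tissue of 4 animals was pooled into 1 droplet library per group. Foot shock mice were first placed in the chamber daily, for 10 min on each of 7 days, and then received 30 shocks of 0.3 mA and 1 s, at a mean interval of 116 s, in a session of 60 min. Control mice were handled for 5 min per day on 7 days, as the foot shock mice were, but came straight from the home cage and did not visit the chamber. Brains of foot shock mice were taken directly after the session. Slices rested on ice for 30 min, and punches were digested with pronase for 45 min at room temperature. In both groups the perfusion and slicing solution carried 5 µM actinomycin and 37.7 µM anisomycin, which block transcription and translation, together with 500 nM tetrodotoxin, 10 µM APV and 10 µM DNQX, which block firing and glutamate receptors. With 1 library per group the shock, the chamber, the day of preparation and the library cannot be told apart. No test between groups was possible, and every interval is a 95% interval that covers counting error only.

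Captured transcript ends were counted by their unique molecular identifiers (UMIs). The foot shock library held 22189951 UMIs and the control library 23095501, and 4761 and 4880 cells were kept. In 10 classes both libraries had at least 50 cells, so that ratios were formed there. They comprised lateral habenula (LHb)-like neurons with 870 foot shock and 967 control cells, medial habenula (MHb)-like neurons with 1621 and 1207, thalamus-like neurons with 57 and 132, other neurons with 211 and 291, 5 glial classes, and the vessel wall class of mural-like cells with 61 and 54. A further 503 cells led by keratin genes occurred in the foot shock library and 0 in the control library, and Scrublet called 1.63% of foot shock cells and 4.85% of control cells doublets. Kept cells of the 2 libraries shared 32 barcodes. Levels are written as CPM, which scales the UMIs of a gene to the total of its class in that library.

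The starts of Fos, Fosb, Jun and Junb are shown because they carry short motifs through which activity-dependent transcription factors and AP-1 itself are known to act. Each sequence runs 5′ to 3′ on the strand of the gene, from 250 bases before to 50 bases after the RefSeq start in GRCm38.p6. Capitals mark TGACG, the core of the cyclic AMP response element, TGACATCA, an AP-1 site variant, and TATAAA.
Fos, chr12:85473640-85473939, + strand: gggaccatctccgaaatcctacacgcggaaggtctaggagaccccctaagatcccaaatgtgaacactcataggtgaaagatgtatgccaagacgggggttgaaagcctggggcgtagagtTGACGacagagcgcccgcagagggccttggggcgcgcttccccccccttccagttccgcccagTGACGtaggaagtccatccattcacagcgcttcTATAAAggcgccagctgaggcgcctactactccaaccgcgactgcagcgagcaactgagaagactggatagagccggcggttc
Fosb, chr7:19309996-19310295, − strand: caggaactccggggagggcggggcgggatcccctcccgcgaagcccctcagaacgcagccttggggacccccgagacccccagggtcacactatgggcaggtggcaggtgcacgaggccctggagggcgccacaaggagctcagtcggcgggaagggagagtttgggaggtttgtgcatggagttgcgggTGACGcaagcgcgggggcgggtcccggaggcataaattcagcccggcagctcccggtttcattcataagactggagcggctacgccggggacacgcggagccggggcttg
Jun, chr4:95052173-95052472, − strand: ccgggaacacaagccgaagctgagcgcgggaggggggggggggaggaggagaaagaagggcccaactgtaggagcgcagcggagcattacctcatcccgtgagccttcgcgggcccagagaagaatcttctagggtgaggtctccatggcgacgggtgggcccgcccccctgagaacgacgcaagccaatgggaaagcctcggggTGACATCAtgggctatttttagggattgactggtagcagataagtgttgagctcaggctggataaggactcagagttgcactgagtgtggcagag
Junb, chr8:84978699-84978998, − strand: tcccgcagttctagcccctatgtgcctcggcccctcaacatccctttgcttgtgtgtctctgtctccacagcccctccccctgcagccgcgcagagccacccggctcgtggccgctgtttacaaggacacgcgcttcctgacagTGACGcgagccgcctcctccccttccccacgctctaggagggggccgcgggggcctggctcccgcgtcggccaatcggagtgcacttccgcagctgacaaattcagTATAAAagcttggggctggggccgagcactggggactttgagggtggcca
The Fos sequence held TGACG at bases 122 to 126 and 185 to 189, counted from the first base shown, and TATAAA at bases 218 to 223. Fosb held TGACG at bases 191 to 195, Junb held it at bases 145 to 149, and Jun held TGACATCA at bases 206 to 213. The TATAAA of Junb began at base 251, the RefSeq start itself, which lies 30 bases before the GENCODE start. Among 32851 RefSeq promoters of the same length, TGACG was found on either strand in 20.8%, TGACATCA in 3.62% and TATAAA on the gene's strand in 8.32%. The whole element TGACGTCA, which contains TGACG, occurred in 1.79% of promoters, the classical AP-1 site TGANTCA in 7.81% and the CArG box that Srf binds in 1.63%. None of these 3 had a match in the 300 bases of any member. Sequence more than 250 bases before the start was not searched, so sites there would be missed. The RefSeq windows of Fosl2 and Jund held no match to any motif searched, but these windows start from positions 671 and 1210 bases away from the GENCODE gene starts. A match is a run of letters and not evidence of binding.

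In GENCODE vM21 (mm10), Fos spans chr12:85473890-85477273 with 4 exons, Fosb chr7:19302696-19310051 with 4 exons, and Fosl2 chr5:32135801-32157842 with 4 exons. The 3 Jun genes have a single exon each, at chr4:95049034-95052222 (Jun), chr8:84974484-84978718 (Junb) and chr8:70698949-70700616 (Jund). Jun overlaps Junos, Junb overlaps Prdx2 and Jund overlaps Gm11175. Whether the counting was stranded is not known from the labels, so reads in these overlaps may have been left out or assigned to either gene.

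Fos and Jun were higher in foot shock in habenula neurons, and all 4 measured members were lower in foot shock in mural-like cells. Of the 60 member and class pairs, 31 had at least 20 UMIs over both libraries and are called measured. In 10 of the 31 the CPM was at least 1.5 times higher in foot shock, where 7.08% of all measured gene and class pairs were. In 8 it was at least 1.5 times lower, where 12.3% of all pairs were. The split followed the kind of cell. In neurons 9 of 16 measured pairs were higher and 1 lower, beside 4.52% and 8.35% of all pairs in neuronal classes. In glia and mural-like cells 1 of 15 was higher and 7 lower, beside 10.9% and 18.2%. Of the 7 lower pairs, 4 were in mural-like cells. The others were in committed precursors and in oligodendrocyte precursor-like cells, where both intervals held 1. The intervals of 7 pairs lay above 1, all in neurons, those of 7 lay below 1, all in glia and mural-like cells, and 17 held 1. The pairs share cells and libraries and are not independent. Set beside barcodes with 10 to 100 UMIs, which hold released RNA and are described below, 15 of the 31 pairs lay above the low-count level in both libraries, 10 lay at or below it in both and 6 in one of them. By class, 3 of 4 measured members (Fos, Jun and Junb) were higher in foot shock in LHb-like neurons, beside 3.57% of all measured genes. Of these 3, the interval of Junb held 1, Fos and Junb lay below the low-count level in both libraries, and Jun did so in control. The numbers at least 1.5 times higher were 2 of 5 in MHb-like neurons, beside 3.04%, and 3 of 4 in other neurons, beside 5.36%. The higher members in MHb-like neurons, Fos and Jun, lay below the low-count level in both libraries. In other neurons Junb, whose interval held 1, did so in both libraries and Fos did so in foot shock, whereas Jun lay above it. In thalamus-like neurons 1 of 3 was higher, beside 7.32%, and 1 lower, beside 14.5%. In mural-like cells 4 of 4 were lower, beside 21.8%. In oligodendrocyte precursor-like cells 2 of 2 were lower, beside 18.9%, and in committed precursors 1 of 2, beside 16.5%. In microglia-like cells 1 of 3 was higher, beside 18.8%, and 0 were lower, beside 20.1%, so that count lay near its background.

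**Figure D1:**
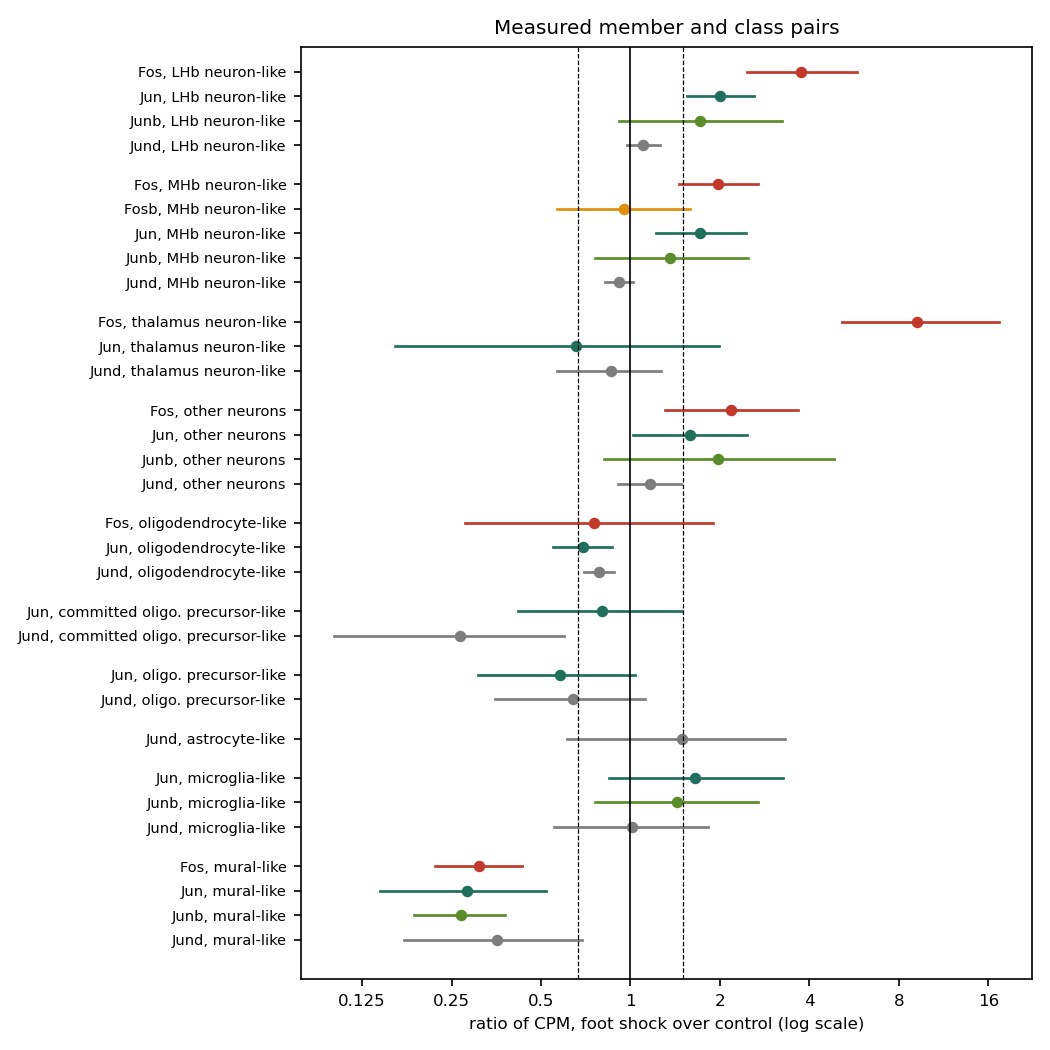
Ratio of CPM, foot shock over control, for the 31 measured pairs of member and class, on a log axis. Points are ratios, horizontal lines are 95% intervals that cover counting error only, and dashed lines mark a fold of 1.5. Fos reached 9.22 in thalamus-like neurons and 3.74 in LHb-like neurons, while the 4 points of mural-like cells lie between 0.269 and 0.357.

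Fos is the founding member of the family. In LHb-like neurons 91 Fos UMIs were counted in foot shock and 32 in control, which is 28.4 CPM (22.8 to 34.8) against 7.58 CPM (5.19 to 10.7). The ratio was 3.74 (2.48 to 5.78). A Fos UMI was found in 46 of 870 foot shock cells and in 27 of 967 control cells. Foot shock LHb-like cells were shallower, with a median of 3622 UMIs against 4335. With every cell thinned to 1000 UMIs the shares were 2.02% (1.19 to 3.19) in foot shock and 0.584% (0.207 to 1.3) in control. Oligodendrocyte-like cells, which normally make little Fos, gave 0.440% (0.110 to 1.17) and 0.391% (0.112 to 0.976) at the same depth, with median depths of 1845 and 2067 UMIs before thinning. The 10 mural markers summed to 22.4 CPM in LHb-like neurons in foot shock and 3.08 CPM in control, with 1 and 4 of them at 0, where mural-like cells had 13441 and 16379 CPM. Their part in the Fos result was not tested.

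The difference in LHb-like neurons was also one of UMIs per positive cell. Positive cells held 1.98 Fos UMIs on average in foot shock and 1.19 in control. A single UMI was seen in 26 of the 46 foot shock cells and in 23 of the 27 control cells. The highest count in a cell was 11 in foot shock and 3 in control. A few strongly positive cells carried much of the sum, since 45.1% of the foot shock UMIs lay in the top 1% of cells.

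In MHb-like neurons Fos stood at 24.7 CPM (20.8 to 29.2) in foot shock and 12.6 CPM (9.65 to 16.1) in control, from 139 and 63 UMIs, a ratio of 1.97 (1.45 to 2.69). Thinned shares were 2.42% and 1.25%. Positive cells held 1.25 UMIs in foot shock and 1.11 in control, and 88 of 111 foot shock and 53 of 57 control positive cells held a single one. The ratio depended on depth. Among MHb-like cells above the median depth of the class it was 2.53, with 24.7 CPM against 9.77 CPM, and among the others it was 1.11 (0.694 to 1.84), with 24.7 CPM against 22.2 CPM. The foot shock level was the same in both depth ranges, and the control level was not. In LHb-like neurons the ratio was 3.82 above the median and 5.68 (1.71 to 29.6) at or below it, the last from 22 and 3 UMIs.

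Thalamus-like neurons had the largest ratio of the family. Their identity rests on thalamic markers such as Gbx2, a transcription factor of thalamic relay neurons, at 271 and 255 CPM, and C1ql3, a secreted synaptic protein, at 1483 and 1339 CPM in foot shock and control. In this class 50 Fos UMIs in 57 foot shock cells gave 191 CPM (141 to 251), and 16 UMIs in 132 control cells gave 20.7 CPM (11.8 to 33.6). The ratio was 9.22 (5.16 to 17.3). Only 14 foot shock cells and 10 control cells were positive, and 5 of the 14 but 0 of the 10 held 5 or more Fos UMIs. Cells of the class were shallower in foot shock, with a median of 3608 UMIs, than in control, with 6539.5. Thinned shares were 13% in foot shock and 1.69% in control. Summed endothelial markers were 68.6 CPM in foot shock and 1.29 CPM in control, and all 10 mural markers were at 0 in foot shock. The part of endothelial RNA in the Fos result was not tested.

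In the remaining neurons, which had too little Pou4f1 to be named habenular or carried other markers, Fos was 48.3 CPM in foot shock and 22.2 CPM in control, a ratio of 2.18 (1.31 to 3.67). This rested on few cells, since 10 of 211 foot shock cells and 14 of 291 control cells were positive. The top 1% of cells held 26 of 38 Fos UMIs in foot shock and 13 of 29 in control. Without them the ratio was 1.12.

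RNA released into the suspension is caught with every cell, and it was measured in barcodes with 10 to 100 UMIs. Fos stood at 72.8 CPM there in foot shock and at 15.5 CPM in control, which is a ratio of 4.69 (3.51 to 6.37). Junb stood at 121 CPM and 15.8 CPM, and Jun at 47.4 CPM and 25.8 CPM. These barcodes were not brain RNA alone. The neutrophil genes S100a8 and S100a9 reached 596 and 849 CPM in foot shock, against 0.555 and 1.11 CPM in control. In LHb-like neurons these 2 genes summed to 3 UMIs in foot shock and 0 in control. Levels of Fos in LHb-like and MHb-like neurons lay below the level of the low-count barcodes in both libraries, so the level alone does not set them apart from background. By the rule used here, a level at or below that of the low-count barcodes is read as background. Of the measured pairs, Fos in LHb-like, MHb-like and oligodendrocyte-like cells fell under it in both libraries. So did Jun in MHb-like and thalamus-like neurons, Junb in LHb-like, MHb-like and other neurons, and Jund in astrocyte-like and committed oligodendrocyte precursor-like cells. Fos in other neurons fell under it in foot shock, at 66.4% of the low-count level, and so did Jund in oligodendrocyte precursor-like cells, at 90.8%. Jun in LHb-like neurons stood at 103% in foot shock and 94.6% in control. Jund lay below the level in control in LHb-like neurons (85.8%), MHb-like neurons (90.3%) and other neurons (89.2%). Ratios of these pairs compare levels of which at least one is read as background by this rule. The rule takes no account of the share of a cell's UMIs that is free RNA. For Jund in control LHb-like neurons, at 123 CPM, the marker-based estimate described next would bring 10.0 CPM.

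The low-count barcodes held 0.603 Fos UMIs per Junb UMI in foot shock and 0.982 in control. LHb-like neurons had 3.50 Fos UMIs per Junb UMI in foot shock and 1.60 in control, MHb-like neurons had 4.34 and 3.00, and thalamus-like neurons had 8.33 and 5.33. Free RNA was also estimated from marker genes of unrelated classes, at 7.48% of the UMIs of LHb-like neurons in foot shock and 6.95% in control. These shares would bring 5.45 CPM and 1.08 CPM of Fos. After subtraction the Fos ratio was 3.54 in LHb-like, 1.68 in MHb-like and 9.64 in thalamus-like neurons. For oligodendrocyte-like cells in foot shock the same estimate would bring 13.4 CPM of Junb and 8.10 CPM of Fos, where 2.39 and 4.78 CPM were found, so it exceeded what those cells held. The part of released RNA in the Fos results was not tested.

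Vessel wall cells went the other way. Mural-like cells held 48 Fos UMIs in foot shock and 153 in control, which is 585 CPM (431 to 776) against 1887 CPM, a ratio of 0.310 (0.219 to 0.431). A Fos UMI was found in 28 of 61 foot shock cells and in 48 of 54 control cells, and thinned shares were 39.5% and 78.9%. Positive cells held 1.71 Fos UMIs in foot shock and 3.19 in control, and 5 or more UMIs occurred in 0 of 28 and 12 of 48. Among the markers of these cells, Acta2, smooth muscle actin, was at 2742 CPM in foot shock and 3601 CPM in control, Tagln at 2559 and 3182 CPM, and Myh11, the smooth muscle myosin heavy chain, at 1669 and 1628 CPM. Rgs5, a signalling regulator of mural cells, was at 1743 CPM in foot shock and 2787 CPM in control, and Vtn, the vitronectin gene, at 48.7 and 136 CPM. Kcnj8, a pericyte channel gene, had 0 UMIs in both. In the same cells endothelial markers summed to 110 CPM in foot shock and 12.3 CPM in control, and astrocyte markers to 24.4 and 234 CPM. Oligodendrocyte markers summed to 609 CPM in foot shock and 74.0 CPM in control, and neuron markers to 427 and 185 CPM. The part of RNA of other cell types in the result was not tested. The ratio was 0.282 above and 0.239 at or below the median depth of the class. In 4 subclusters of it the ratio ranged from 0.228 to 0.393. These were small, with 10 to 23 foot shock cells and 6 to 22 control cells each.

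Endothelial-like cells numbered 46 in foot shock and 64 in control, too few for a ratio, and had 145 CPM of Fos against 849 CPM. Macrophage-like cells, with 18 and 12 cells, held 3 Fos UMIs in foot shock and 8 in control. Microglia-like cells had 11 Fos UMIs in foot shock and 2 in control, which is 91.4 CPM (45.6 to 164) against 11.1 CPM (1.34 to 40.1). They fell short of the 20 UMIs asked for. Oligodendrocyte-like cells held 8 and 15 Fos UMIs, at 4.78 and 6.34 CPM. In the foot shock library mural-like cells ranked first for Fos among the 12 classes with at least 50 cells, and thalamus-like neurons second. Below them, no class from rank 2 to rank 12 was separated from its neighbour by its interval.

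**Figure D2:**
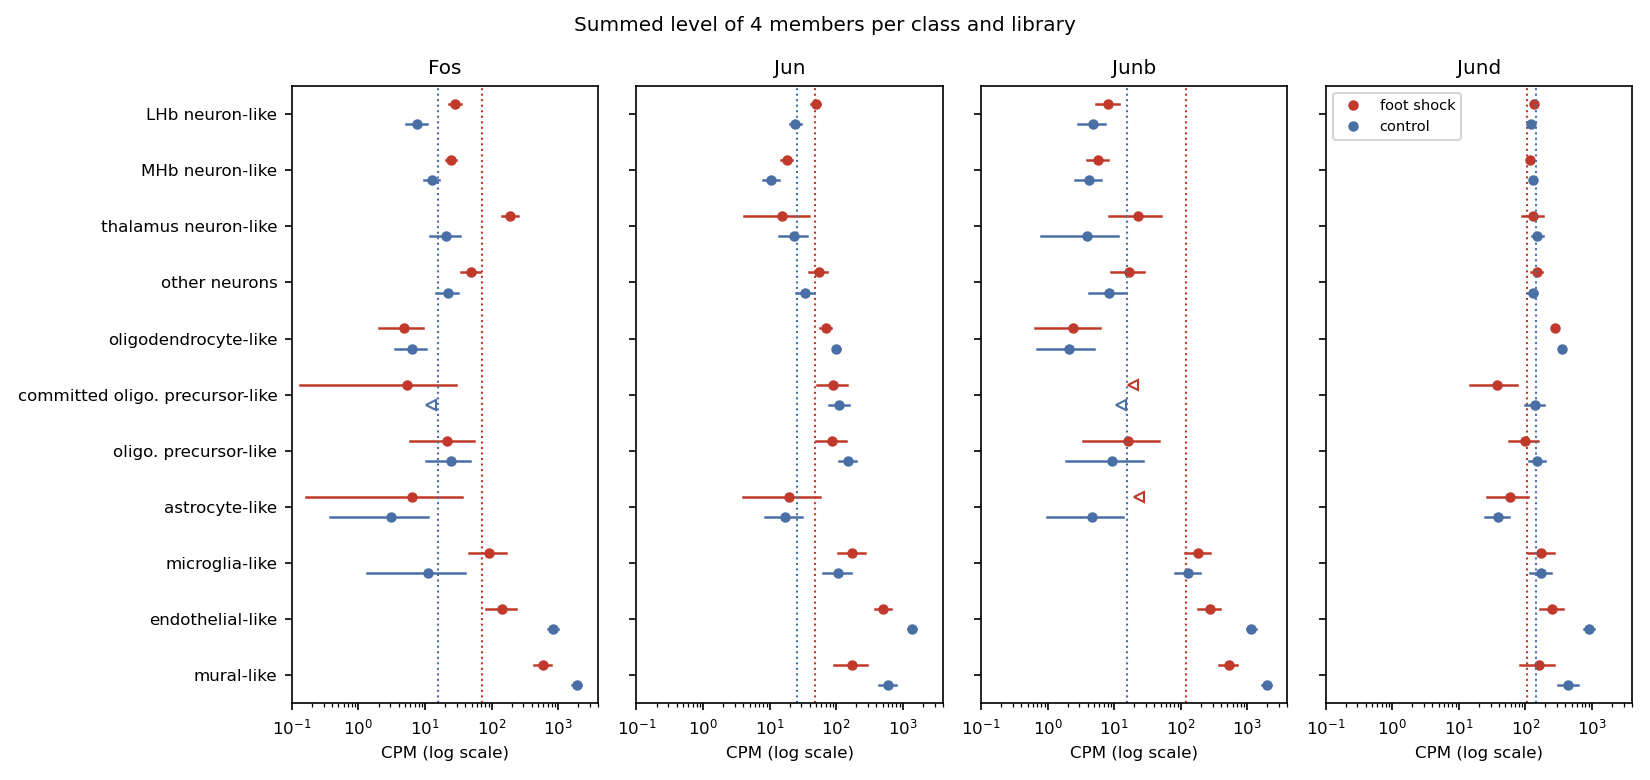
Summed level of Fos, Jun, Junb and Jund in 11 classes, on a log axis of CPM, with foot shock (red) above control (blue). Points are levels, lines are exact Poisson intervals that cover counting error only, open triangles are upper limits where a class held 0 UMIs, and dotted lines give the level in barcodes with 10 to 100 UMIs. Fos is right-shifted in foot shock in all 4 neuronal rows and left-shifted in both vascular rows, and Jund overlaps in the neuronal rows.

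Fosb, whose truncated splice form delta FosB builds up after repeated stimulation, reached 20 UMIs, among classes with a ratio, in MHb-like neurons alone. The 3′ counts do not separate its splice forms. In MHb-like neurons it had 34 UMIs in foot shock and 32 in control, or 6.05 CPM (4.19 to 8.45) and 6.38 CPM (4.36 to 9.01), a ratio of 0.948 (0.568 to 1.59). LHb-like neurons held 7 Fosb UMIs in foot shock and 6 in control. Thalamus-like neurons held 7 in 57 foot shock cells, at 26.7 CPM (10.7 to 55.0), and 1 in 132 control cells, at 1.29 CPM. Endothelial-like cells held 2 in foot shock and 28 in control. Fosl2, a Fos relative that lacks the strong activation domain of Fos, reached 20 UMIs in no class with a ratio. It was seen at 6 UMIs in foot shock and 11 in control in LHb-like neurons, and at 5 and 6 in MHb-like neurons. Its highest foot shock level, 73.9 CPM, was in 50 fibroblast-like cells and came from 6 UMIs.

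Jun, which can pair with itself or with any Fos protein, differed from Fos in where it was found. In LHb-like neurons it stood at 48.9 CPM (41.6 to 57.2) in foot shock and 24.4 CPM (19.9 to 29.6) in control, from 157 and 103 UMIs, a ratio of 2.00 (1.55 to 2.60). A Jun UMI was present in 134 foot shock and 89 control LHb-like cells, and thinned shares were 4.32% and 1.82%. In MHb-like neurons it stood at 18.1 CPM against 10.6 CPM, a ratio of 1.72 (1.22 to 2.44), which became 1.87 above and 1.06 (0.650 to 1.77) at or below the median depth. Other neurons had 54.7 and 34.4 CPM, a ratio of 1.59 (1.02 to 2.47). Thalamus-like neurons, with the largest Fos ratio, had 4 Jun UMIs in foot shock and 18 in control, at 15.2 and 23.3 CPM, both below the low-count level, and their ratio of 0.655 had an interval from 0.161 to 1.99.

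Jun was also measured in the oligodendrocyte lineage. Oligodendrocyte-like cells had 117 Jun UMIs in foot shock and 239 in control, at 69.9 CPM (57.8 to 83.8) and 101 CPM (88.6 to 115), a ratio of 0.692 (0.550 to 0.867). Thinned shares were 6.53% and 9.68%. The ratio of 0.692 did not reach the fold of 1.5, although its interval lay below 1. The 2 most populous foot shock subclusters gave 0.642 (led by Apoe and Il33) and 0.429 (led by S100b and Pmp22), and the subcluster led by Actb and Clasp2 gave 1.24, from 70 foot shock and 333 control cells. Oligodendrocyte precursor-like cells had 86.4 and 149 CPM, a ratio of 0.580 whose interval held 1 and which was 1.03 with cells of 500 UMIs or more. Committed precursors had 89.6 and 111 CPM, a ratio of 0.804 (0.420 to 1.49). Mural-like cells had 171 CPM in foot shock and 604 CPM in control, a ratio of 0.282 (0.144 to 0.520). Endothelial-like cells had 506 and 1397 CPM. Microglia-like cells had 175 and 105 CPM, with a ratio of 1.65 (0.847 to 3.25).

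Junb, which is induced with Fos and acts as a weaker activator than Jun, had its highest foot shock levels, among classes with at least 50 cells, in mural-like, fibroblast-like and microglia-like cells. By UMIs, the foot shock cells led by keratin genes held 131 of the 338 in named cells (38.8%). Mural-like cells held 43 UMIs in foot shock and 158 in control, at 524 CPM (379 to 706) and 1949 CPM, a ratio of 0.269 (0.187 to 0.379). Endothelial-like cells had 271 CPM in foot shock and 1148 CPM in control. Microglia-like cells had 183 and 128 CPM, a ratio of 1.43 (0.761 to 2.69). LHb-like neurons held 26 and 20 UMIs, at 8.10 and 4.74 CPM, a ratio of 1.71 (0.918 to 3.23), and MHb-like neurons held 32 and 21 UMIs, at 5.69 and 4.19 CPM, a ratio of 1.36. In foot shock the estimated free RNA would bring 9.03 CPM to LHb-like and 9.27 CPM to MHb-like neurons. The same estimate would bring 13.4 CPM to oligodendrocyte-like cells, where 2.39 CPM was found, so there it exceeded what the cells held. By the rule of the low-count barcodes, Junb in habenula neurons is read as background in both libraries. The part of released RNA in these levels was not tested.

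Jund, the member least dependent on stimulation, was the most widely detected. In LHb-like neurons it was at 136 CPM in foot shock and 123 CPM in control, a ratio of 1.11 (0.972 to 1.26), and in MHb-like neurons at 119 and 130 CPM, a ratio of 0.917 (0.822 to 1.02). No class reached 1.5 times higher in foot shock, where 7.08% of all measured pairs did, and 3 of 10 were at least 1.5 times lower, where 12.3% did. Among LHb-like cells at or below the median depth the ratio was 1.57 (1.17 to 2.13). The 3 lower classes included committed oligodendrocyte precursor-like cells at 36.9 against 138 CPM and mural-like cells at 158 against 444 CPM, a ratio of 0.357. The last of them was oligodendrocyte precursor-like cells at 97.2 against 152 CPM, whose interval held 1. The foot shock levels of committed precursors and precursors were 34.4% and 90.8% of the low-count level, and the estimated free RNA made up 44.3% and 117% of their UMIs, the last an impossible share. Among classes with at least 50 cells, oligodendrocyte-like cells had the highest foot shock level, 280 CPM, against 358 CPM in control, a ratio of 0.783 (0.698 to 0.878).

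Within the habenula, Fos levels varied among subclusters in each library. Subclusters were formed without the 6 members or the response lists among the features. In LHb-like neurons the subcluster led by Cxcl13, a chemokine gene, with Fibcd1 and Ret, had 37 Fos UMIs in 102 foot shock cells and 1 in 77 control cells, at 77.1 and 2.36 CPM. Its ratio was 32.7, with an interval from 5.51 to 1324 because of the single control UMI. The 37 UMIs lay in 13 cells, with up to 11 in a cell, and the interval takes no account of that. This subcluster was singled out after its values were seen, as the one of highest Fos in foot shock. It held 40.7% of the Fos UMIs of foot shock LHb-like neurons and 3.13% of those of control. Without it the ratio in LHb-like neurons was 2.42 (1.53 to 3.90). Leaving out a subcluster picked in this way tends to lower the ratio, so the fall does not show that the difference was concentrated there. The subcluster led by Megf11 and Necab1 held 16.5% of the LHb Fos UMIs in foot shock, at 37.5 CPM, and 53.1% in control, at 16 CPM. The subcluster led by Gng4, Kcnk2 and Ddc had 31.8 CPM against 6.24 CPM, a ratio of 5.09 (1.34 to 28.4). Counting a CPM difference of any size, Fos was higher in foot shock in all 9 LHb subclusters. They held 3 to 37 Fos UMIs each in foot shock and 0 to 17 in control. This count asked for no fold or interval and has no share over all genes beside it. It includes the subcluster led by D930028M14Rik, with 3 Fos UMIs in each library. In MHb-like neurons not every subcluster was higher, as given below.

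In MHb-like neurons the subcluster led by Fgf1 and Syndig1l, with 334 foot shock and 240 control cells, had 47 Fos UMIs in foot shock and 4 in control, at 31.3 and 3.40 CPM. The ratio was 9.19 (3.36 to 35.1), and the subcluster held 33.8% of the Fos UMIs of foot shock MHb-like neurons and 6.35% of those of control. Its 47 foot shock UMIs lay in 32 cells, and this subcluster too was singled out after its values were seen. Without it the MHb ratio was 1.45 (1.04 to 2.05), below the fold of 1.5. The subcluster led by Cck, the cholecystokinin gene, had similar Fos levels in both libraries, 35.2 CPM in foot shock and 31.7 CPM in control, a ratio of 1.11 (0.586 to 2.13). The subcluster led by Kcnmb4os2 and Rprm had 21.3 and 23.4 CPM, a ratio of 0.911 (0.482 to 1.70). A difference between subclusters was not tested.

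Jun was spread differently among the same subclusters. In LHb-like neurons its highest foot shock level was in the subcluster led by D930028M14Rik and Ntng1, at 106 CPM against 49.8 CPM, a ratio of 2.14 (1.04 to 4.59). That subcluster had 3 Fos UMIs in each library. The Cxcl13 subcluster had 83.3 CPM of Jun in foot shock and 47.2 CPM in control, a ratio of 1.77 (1.01 to 3.19), and the remaining LHb-like neurons gave 1.96 without it. In MHb-like neurons the largest Jun ratio with an interval above 1 was in the subcluster led by Npr1, at 21.2 against 6.08 CPM, a ratio of 3.49 (1.31 to 11.7).

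**Figure D3:**
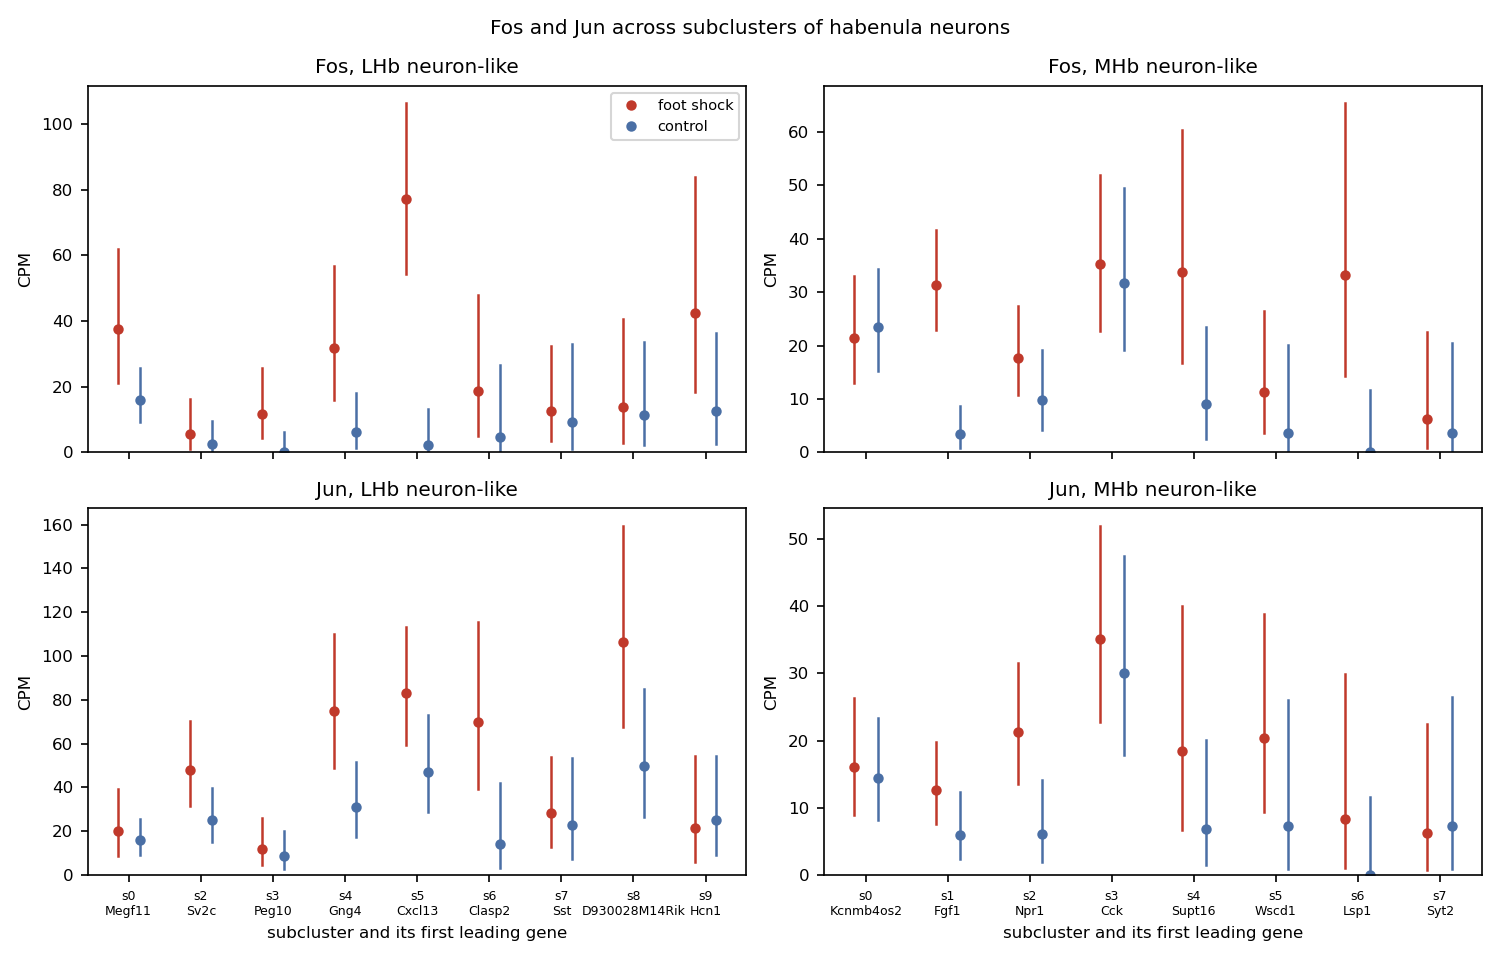
Level of Fos (top) and Jun (bottom) in CPM in the subclusters of LHb-like neurons (left) and MHb-like neurons (right), named by their leading gene, with foot shock (red) left of control (blue). Lines are exact Poisson intervals that cover counting error only, and each panel has its own scale. The Cxcl13 subcluster has the highest Fos point, 77.1 CPM in foot shock beside 2.36 CPM in control.

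Fos-positive and Fos-negative cells of a class were compared for 42 other genes, the other members and the lists of co-induced and of feedback genes. In foot shock LHb-like neurons 40 of these were detected, 27 in a higher share of Fos-positive cells and 13 in a lower one. In control LHb-like neurons the numbers were 28 and 11. Positive foot shock LHb-like cells were deeper, with a median of 4715 UMIs against 3568.5 in negative cells, and depth alone raises joint detection. The same tally over all genes was not made in any class, so these numbers have no background and are not read as a result about the lists. Egr1, a zinc finger immediate early gene, was found in 23 of the 46 Fos-positive cells and in 6.07% of the 824 Fos-negative ones, at 241 and 24.2 CPM. Jun was found in 17 of the 46 (37.0%) and in 14.2% of the others. Nr4a1, a nuclear receptor gene, was found in 13% and 0.85%, and Npas4, a factor specific to neuronal activity, in 6.52% and 0.728%. In control LHb-like neurons Jun was found in 3 of 27 Fos-positive cells (11.1%) and in 9.15% of the others. In MHb-like neurons 25 genes had a higher and 12 a lower share in Fos-positive cells in foot shock, against 17 and 20 in control. Jun was found in 7.21% of 111 Fos-positive foot shock cells and in 5.63% of negative ones, whereas Fosb was found in 7.21% and 1.59%, and Egr1 in 13.5% and 3.77%. Median depths there were 3745 and 3456.5 UMIs.

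Cells with 3 or more of the 6 members were 1.95% of LHb-like neurons in foot shock and 0.827% in control, and 0.740% and 0.331% of MHb-like neurons. They were 8.77% and 3.03% of thalamus-like neurons. In mural-like cells they were 19.7% in foot shock and 53.7% in control, and 14 of 61 foot shock cells but 0 of 54 control cells held no member.

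**Figure D4:**
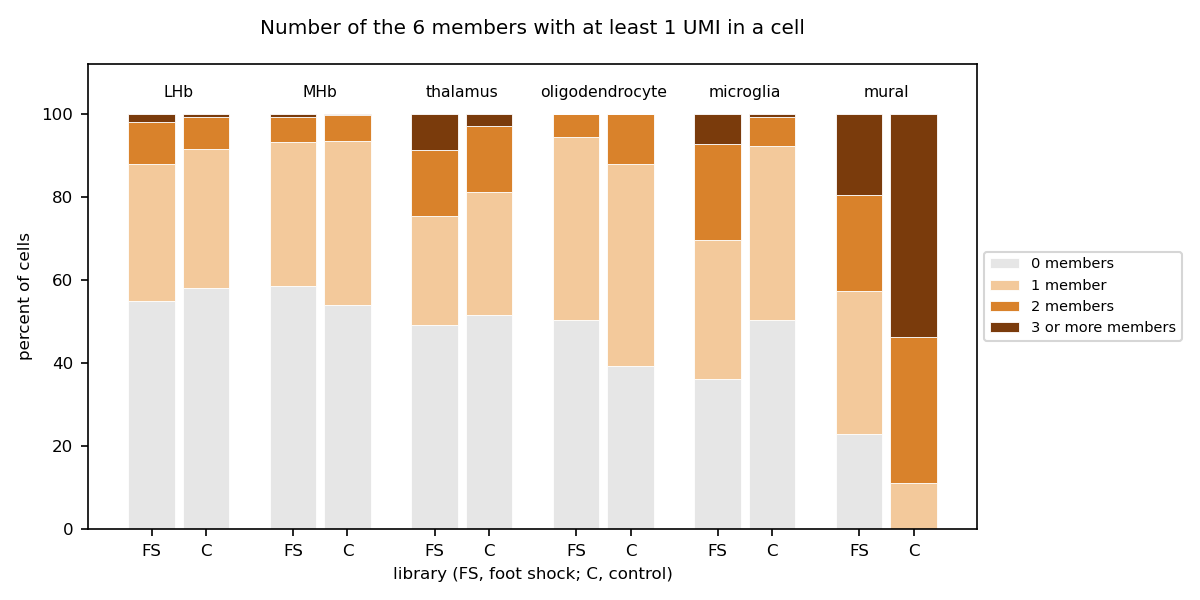
Percent of cells with at least 1 UMI of 0, 1, 2, or 3 or more of the 6 members, in 6 classes, with foot shock (FS) left of control (C). Cells were not thinned, so the shares also follow depth. Mural-like cells with 3 or more members are 19.7% in foot shock and 53.7% in control, and LHb-like neurons with 3 or more are 1.95% and 0.827%.

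Other genes of the AP-1 pathway were taken from lists. Among AP-1 and bZIP partners, 0 of 7 measured in LHb-like neurons were at least 1.5 times higher in foot shock, where 3.57% of all measured genes were, and 1 was lower, where 5.69% were. That was Jdp2, a dimerisation protein that represses AP-1, at 7.17 CPM in foot shock and 12.1 CPM in control, a ratio of 0.593 (0.346 to 0.988). In MHb-like neurons 0 of 6 were higher and 0 lower, beside 3.04% and 4.58% of all genes. Among the kinases and transcription factors upstream, 0 of 23 were higher and 1 lower in LHb-like neurons, and 0 of 24 were higher or lower in MHb-like neurons. Mapk3, the ERK1 kinase, had the highest ratio in LHb-like neurons, 1.24 (1.09 to 1.41). Rps6ka1, a kinase that ERK activates, had the lowest, 0.646 (0.392 to 1.04).

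Among genes that are induced along with Fos, 2 of 14 measured in LHb-like neurons and 3 of 15 in MHb-like neurons were at least 1.5 times higher in foot shock, and 0 were lower in either. Of all measured genes, 3.57% were higher and 5.69% lower in LHb-like neurons, and 3.04% and 4.58% in MHb-like neurons. The list median was 0.05 on the log2 scale in LHb-like neurons, beside -0.05 for all genes, and 0.10 beside -0.04 in MHb-like neurons. The family itself had medians of 0.88 and 0.43. In LHb-like neurons the higher genes were Egr1, at 39.6 CPM in foot shock and 14.5 CPM in control, a ratio of 2.74 (2.00 to 3.78), and Klf10, at 5.92 and 2.13 CPM, which was named after its values were seen. Egr1 in MHb-like neurons was at 17.1 against 5.38 CPM, a ratio of 3.17 (2.05 to 5.06). The Cxcl13 subcluster held 43.3% of the LHb Egr1 UMIs in foot shock and 1.64% in control, and without it the Egr1 ratio was 1.67. Per1, a clock gene that light and stress induce, had the lowest ratio of the list in LHb-like neurons, 0.831 (0.582 to 1.18).

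In mural-like cells the co-induced genes were lower with the family. There 4 of 5 measured were at least 1.5 times lower in foot shock, beside 21.8% of all genes in the class, and 0 were higher, beside 9.50%. Ier2, an immediate early nuclear protein, was at 134 against 555 CPM, a ratio of 0.242, and Cyr61, a matrix protein, had the highest ratio of the list, 0.732. In the same cells 3 of 4 measured genes of feedback and turnover were lower. Btg2, which slows proliferation, was at 451 against 1159 CPM, a ratio of 0.389.

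Of the feedback and turnover genes, 1 of 9 was higher and 1 lower in LHb-like neurons, beside 3.57% and 5.69% of all genes. Zfp36l2, a protein that speeds mRNA decay, had a ratio of 2.06 (1.05 to 4.12). Dusp6, an ERK phosphatase, had 0.526 (0.200 to 1.25), from 8 UMIs in foot shock and 20 in control. In MHb-like neurons 3 of 11 were higher and 1 was lower, beside 3.04% and 4.58%. Dusp4, another such phosphatase, had the highest ratio, 2.68 (0.925 to 9.41), and Spry2, an inhibitor of ERK signalling, the lowest, 0.666. Of reported AP-1 targets, 1 of 8 was higher and 3 lower in LHb-like neurons, beside the same 3.57% and 5.69%. Cd44, a hyaluronan receptor, had a ratio of 2.63 (1.18 to 6.29), and Ccnd1, a cyclin, was at 10.6 against 22.0 CPM, a ratio of 0.481 (0.315 to 0.719).

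In oligodendrocyte-like cells 2 of 6 co-induced genes were higher and 1 lower, beside 5.17% and 13.9% of all genes. Per1 was at 30.5 CPM in foot shock and 6.34 CPM in control, a ratio of 4.81. Arc, an activity-regulated cytoskeletal gene, had the lowest ratio of that list, 0.580. Of the feedback and turnover genes, 1 of 7 was higher and 3 were lower, beside the same 5.17% and 13.9%. Btg2 had the lowest ratio of these, 0.25.

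The profile of each member over 20 points, 10 classes in both libraries, was compared with those of 10248 other genes or, for Fosb and Fosl2, 10249 other genes, as log2(CPM + 1). The points share libraries and differ in depth, so these are descriptions. Egr1 was most like Fos, with a Pearson correlation of 0.904, followed by Myo1c at 0.890, Ppp1r12b at 0.864, Junb at 0.861 and Pcp4l1 at 0.835. Egr1 was also most like Junb, at 0.916. Jun was most like Lamc1, a laminin chain, at 0.854, and Itgb1, an integrin chain, at 0.853. Fosb was most like Pck2, at 0.871. The highest values for Jund and Fosl2 were lower, with Gltscr2 at 0.790 and Nop14 at 0.758. Fos correlated with Jun at 0.399 and with Jund at 0.425.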

How the data were processed

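Single-cell 3′ libraries (version 2 chemistry) were made from habenula punches. The deposited values are UMI counts for each gene and barcode, made by the authors with Cell Ranger 2 and mm10 per the submitters' processing notes, and they were not normalized. The annotation release is not named in the labels. Of 28692 gene identifiers, 28339 occur in GENCODE vM21.

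Each matrix held 737280 barcodes. Cells were called at 1000 UMIs or more, 500 to 6000 genes and at most 20% mitochondrial UMIs, which left out 188 foot shock and 63 control barcodes over that limit. Scrublet then removed 79 and 249 doublets. Both libraries were clustered together in scanpy 1.11.5 (2000 variable genes, 30 components, 15 neighbours, Leiden resolution 1). Neither the 6 members nor the pathway lists served as features. Clusters were named for the type of which they held at least 3 markers. Clusters with markers of unrelated types (98 foot shock and 67 control cells) were left out, and habenula names also required 1 Pou4f1 count per 10000. Both of these rules were set after the data were seen. Of 27 clusters, 15 classes resulted.

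CPM came from the summed UMIs of a class in a library. Intervals were exact (scipy 1.17.1), by Poisson for levels, by the conditional binomial for ratios and by Clopper-Pearson for shares, and were checked on simulated data. A pair was measured at 20 UMIs over both libraries, and a fold of 1.5 was counted. A prior count of 0.5 entered the log2 ratios behind list medians. Free RNA was taken from 94619 foot shock and 74374 control barcodes with 10 to 100 UMIs, and its share of a class was the median over unrelated markers of at least 20 CPM. The median replaced a sum after the sum was seen to rest on markers that neurons express. TMM factors came from edgeR 4.0.16.

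The members, lists and alternatives were chosen with earlier results of these data known. Outside the family, the 5 genes most correlated with each member (among genes with 200 UMIs or more) and the genes with the highest and lowest ratio of each list were eligible to be named. Other list genes in the account of Fos-positive cells were named after their values were seen. The animals of a group were pooled, so the spread between animals is unknown, and no p-value is given.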

Additional observations from a re-analysis of the deposited data

Results flagged for a closer look

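Fos moved in opposite directions in neurons and in the vessel wall between the libraries. Its ratio of foot shock to control was 3.74 in LHb-like neurons, 1.97 in MHb-like neurons, 2.18 in other neurons and 9.22 in thalamus-like neurons, against 0.310 in mural-like cells. Jun had ratios of 2.00 in LHb-like, 1.72 in MHb-like and 1.59 in other neurons, against 0.282 in mural-like cells. Its ratios of 0.655 (0.161 to 1.99) in thalamus-like neurons and 1.65 (0.847 to 3.25) in microglia-like cells had intervals that held 1. Fos in LHb-like and MHb-like neurons and Jun in MHb-like neurons lay below the level of the low-count barcodes in both libraries, as did Fos in other neurons in foot shock and Jun in LHb-like neurons in control. The difference between classes was not tested, since there is 1 library per group.

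Outside the called cells, barcodes with 10 to 100 UMIs held Fos at 72.8 CPM in foot shock and 15.5 CPM in control, and Junb at 121 CPM in foot shock and 15.8 CPM in control. In the same barcodes the summed neutrophil markers were 1556 CPM in foot shock and 7.49 CPM in control, and the summed erythrocyte markers 339 and 4.44 CPM. Their part in the Fos and Junb levels was not tested.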

How the results depend on the processing

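Across 15 settings and the 31 measured pairs of member and class, 434 finite and positive ratios were recomputed. Of these, 20, in 10 pairs, fell on the other side of 1 from the main ratio. In 3 of these the main ratio was past the fold of 1.5. Jun in microglia-like cells was 0.962 at Leiden resolution 0.5, and Jun in oligodendrocyte precursor-like cells was 1.03 at a minimum of 500 UMIs per cell and 1.11 among cells at or below the median depth. In the other 17 it was short of the fold. Their extremes were Fos in oligodendrocyte-like cells at 2.08 (main 0.754), Jund in astrocyte-like cells at 0.561 (1.49) and in thalamus-like neurons at 2.02 (0.857), Fosb and Junb in MHb-like neurons at 1.23 (0.948) and 0.797 (1.36), and Junb in microglia-like cells at 0.956 (1.43). Besides the 3, 14 recomputed ratios lay beyond the counting interval of the main ratio. At or below the median depth, Fos was 1.11 and Jun 1.06 in MHb-like neurons, Jun was 2.84 in LHb-like and Fos 19.6 in thalamus-like neurons. Above it, Junb was 0.185 in mural-like cells. Without the subcluster of highest Fos, Fos was 2.42 in LHb-like neurons. The pairs at least 1.5 times higher numbered 6 at a minimum of 2000 UMIs per cell, 19 with no minimum count and 4 at a fold of 2. The pairs at least 1.5 times lower numbered 1 at 2000 UMIs per cell, 3 at or below the median depth, 5 when measured from 50 UMIs, 15 with no minimum count and 5 at a fold of 2. Fewer classes and cells entered at 2000 UMIs, and mural-like cells did not form a class there. The causes of the other changes were not tested. Over all settings Fos ranged from 2.42 to 5.68 in LHb-like and from 0.222 to 0.339 in mural-like cells, and Jun from 1.86 to 2.84 in LHb-like neurons. TMM scaling moved log2 ratios by -0.13 in microglia-like and 0.13 in mural-like cells and by less than 0.1 in the other classes. Subtraction of free RNA gave no value where its estimated share passed 50%, in microglia-like and oligodendrocyte precursor-like cells. The subtraction also left no foot shock level for Junb in LHb-like and MHb-like neurons, Fos in oligodendrocyte-like cells and Jund in committed precursors. These cases are missing from the 434 ratios. The main ratio of Junb was 1.71 in LHb-like neurons, past the fold, and 1.36 in MHb-like neurons. No paired analysis was possible because each group is 1 library, and for the same reason no replicate could be left out. Depth limits Fosb, Fosl2 and Junb in neurons, where a class held few UMIs.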

Other observations

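The 503 keratin epithelium-like cells of the foot shock library, a class with 0 cells in control, held UMIs of all 6 members. Fos stood at 157 CPM with a UMI in 23.1% of cells, and Jun at 446 CPM with a UMI in 53.1%. Junb was at 106 CPM, Jund at 92.4 CPM, Fosb at 34.1 CPM and Fosl2 at 29.2 CPM. Cells with 3 or more members made up 16.1% of the class, which held 31.3% of all Fos UMIs in named foot shock cells. The 8 keratin epithelium markers summed to 0.623 CPM in LHb-like neurons in foot shock and 0.474 CPM in control.

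Fibroblast-like cells, 50 in foot shock and 17 in control, had Fos at 172 CPM from 14 UMIs in foot shock and 0 UMIs in control, and Junb at 308 and 133 CPM. Ependymal-like cells, 38 and 15, held no Fos UMI in either library, whereas their Jund stood at 534 and 328 CPM.

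Of the 617 Fos UMIs in named foot shock cells, MHb-like neurons held 22.5%, LHb-like neurons 14.7%, thalamus-like neurons 8.10% and mural-like cells 7.78%. Of the 461 in named control cells, MHb-like neurons held 13.7%, LHb-like neurons 6.94%, mural-like cells 33.2% and endothelial-like cells 28.9%.

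Of 31 detected genes of the same lists, 23 had a higher and 8 a lower share among the 14 Fos-positive than among the 43 Fos-negative thalamus-like neurons of the foot shock library, against 19 and 16 of 35 in control. The following were chosen after their values were seen. Nr4a3, a nuclear receptor gene, was found in 35.7% and 4.65%, Dusp1, a phosphatase of MAP kinases, in 28.6% and 4.65%, Junb in 28.6% and 2.33%, and Per1 in 50% and 25.6%. Median depths were 4902 and 3266 UMIs, and depth alone raises such shares. A tally over all genes was not made here either. In mural-like cells of the same library, 27 genes were detected, 17 in a higher and 10 in a lower share of Fos-positive cells. In control the numbers were 26 and 5 of 31. Cyr61, also chosen after its values were seen, was found in 57.1% of 28 Fos-positive and 27.3% of 33 Fos-negative foot shock mural-like cells.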
